A study of Mus musculus with 12 samples.

Results

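The 10 genes described here encode apolipoproteins, the proteins that coat lipoprotein particles: Apoa1, Apoa2, Apoa4, Apoa5, Apob, Apoc1, Apoc3, Apoe, Apoh and Apom. They were chosen by name and looked up in the gene column of the 2 deposited tables of cliques, 1 for each age. Of the 10 genes, 8 were listed in both networks, Apom was listed in old only and Apoh in neither. Over the whole series, 9596 protein-coding genes were listed in at least 1 network, and 65.2% of them were listed in both. The like count for the apolipoprotein genes is 8 of the 9 listed in at least 1 network.

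Hepatocytes make most circulating lipoproteins and secrete them into the blood. Apob is the structural protein of very low density lipoprotein, and Apoa1 and Apoa2 are the main proteins of high density lipoprotein. The smaller C apolipoproteins, Apoa5 and Apoe move between particles and control how lipases and receptors act on them. Several of these genes lie side by side, which is textbook knowledge of the mouse genome: Apoa1, Apoc3, Apoa4 and Apoa5 form 1 cluster, and Apoe, Apoc1, Apoc4 and Apoc2 another.

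The measurements come from H3K27ac Hi-ChIP, which joins DNA ends that lie close together in the nucleus and then pulls down chromatin that carries H3K27ac, acetylation of lysine 27 on histone H3. Active enhancers and promoters bear this mark. Hepatocytes were isolated by collagenase perfusion and slow centrifugation from livers of male C57BL/6 mice, aged 5 months (young) or 25 months (old). There were 6 libraries per age, labelled as 2 replicates, each in 3 batches. The labels' protocols state that the young mice came from a commercial breeder and the old mice from a national aging stock, and both were kept in 1 vivarium before use, so age and supplier cannot be told apart.

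Each age is represented by 1 network of 5 kb bins, called nodes, that the authors grouped into cliques. The word clique is theirs, and here it means a set of nodes that shares no node with any other set. Its size is its number of nodes. With 1 pooled network per age there is no replicate check, and no p-value is given. Sequencing depth is unknown for both ages. The old network held 40304 nodes, 29.2% fewer than the 56928 of the young, and its mean clique had 6.75 nodes against 10.5. Of 8 hepatocyte markers, the young network listed 6 and the old 5, in cliques of up to 65 and 41 nodes, while Tf and Serpina1a were listed at neither age and Hnf4a, the one with 65, in young only. Of 30 markers of macrophages, endothelium, stellate cells, cholangiocytes and lymphocytes, the young network listed 6 and the old 2. All 6 macrophage markers were listed at neither age, and the largest clique with a marker of the others held 25 young nodes, or 7 in old.

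The start sites show where the nodes lie relative to each gene, though the tables give no H3K27ac signal per node. Promoter sequences of 8 of the 10 genes were matched by symbol in RefSeq (GRCm38.p6, the same assembly as mm10), all but Apoc1 and Apoc3. For Apoa1, Apoa4, Apoa5, Apoa2, Apob and Apoe the bin with the first-listed start site was a node at both ages, as for 27.7% of the 17492 protein-coding genes with a promoter entry. For Apom and Apoh it was a node in old only. Thus 2 of 8 old start-site bins had no young counterpart, against 12.6% of the 5547 start-site bins that were nodes in old over all these genes. The sequences below are the bases before the start site of 3 genes whose bin was a node at both ages, followed by the 2 whose bin was a node in old only. They run 5′ to 3′ along the gene, and capitals mark the motif matches described after them.
Apoa1 (chr9:46228380-46228629, + strand): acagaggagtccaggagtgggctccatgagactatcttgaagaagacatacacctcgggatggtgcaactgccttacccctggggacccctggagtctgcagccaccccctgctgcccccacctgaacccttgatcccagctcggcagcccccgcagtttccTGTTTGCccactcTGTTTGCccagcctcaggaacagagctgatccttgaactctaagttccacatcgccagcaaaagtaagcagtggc
Apoa5 (chr9:46268358-46268607, + strand): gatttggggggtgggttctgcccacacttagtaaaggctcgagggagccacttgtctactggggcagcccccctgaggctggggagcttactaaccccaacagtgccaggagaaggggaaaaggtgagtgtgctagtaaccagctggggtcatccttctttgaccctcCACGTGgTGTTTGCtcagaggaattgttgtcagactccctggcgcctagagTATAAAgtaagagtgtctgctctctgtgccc
Apob (chr12:7977427-7977628, + strand): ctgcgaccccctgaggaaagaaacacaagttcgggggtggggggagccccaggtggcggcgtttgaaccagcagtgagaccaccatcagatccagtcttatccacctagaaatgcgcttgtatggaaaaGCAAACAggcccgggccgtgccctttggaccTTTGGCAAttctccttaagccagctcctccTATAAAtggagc
Apom (chr17:35131802-35132051, - strand): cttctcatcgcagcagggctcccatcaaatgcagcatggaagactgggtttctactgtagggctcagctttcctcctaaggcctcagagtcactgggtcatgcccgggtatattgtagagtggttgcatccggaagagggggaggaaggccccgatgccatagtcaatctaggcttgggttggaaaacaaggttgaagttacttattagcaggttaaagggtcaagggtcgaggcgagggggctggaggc
Apoh (chr11:108395047-108395296, + strand): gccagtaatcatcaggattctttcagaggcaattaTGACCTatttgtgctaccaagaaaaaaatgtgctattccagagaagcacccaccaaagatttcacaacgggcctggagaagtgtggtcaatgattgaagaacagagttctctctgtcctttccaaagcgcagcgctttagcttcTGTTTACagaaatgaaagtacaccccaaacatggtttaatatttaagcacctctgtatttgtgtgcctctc

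Motifs were searched on both strands of the 250 bases before the start site. They were chosen for factors known to act in liver: CAAAGTCCA for HNF4, AGGTCA for nuclear receptors, TGTTTGC and TGTTTAC for FoxA pioneer factors, TTGCNNAA for C/EBP, CACGTG for USF and other E-box factors, and TATAAA for the TATA box. TGTTTGC was found before Apoa1, Apoa5 and Apob, 3 of the 8 genes, and in 3.90% of the 17492 promoters. Apoa1 held it at 2 places, from -88 to -82 and from -75 to -69, counted from the start site. Apoa5 held it at -75 to -69, next to a CACGTG at -82 to -77. TGTTTAC was found before Apoa2 and Apoh (2.58% of all promoters), and TATAAA before Apoa5, Apoa2 and Apob (12.4%). TTGCNNAA before Apob (9.11%) and AGGTCA before Apoh (12.6%) were the matches in 1 gene each, beside the CACGTG of Apoa5 (6.64%). CAAAGTCCA was in none of the 8 windows and in 0.366% of all, and Apoa4, Apoe and Apom held none of the 7 motifs. A match is a run of letters and was not tested as a binding site. No matches overlapped among those in capitals. Apoe and Apoa2 sequences are not printed, because RefSeq extends these genes upstream of the first-listed start, and the Apob sequence is cut at its most upstream start. Apoa4, whose bin was also a node at both ages, is not printed either. The 3 printed genes with a node at both ages are thus those with TGTTTGC, and they do not stand for all such genes.

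The cliques of 7 of the 8 genes listed at both ages were above the median size of listed genes, 27 nodes in young and 14 in old, and Apob's was below it in young. The 8 genes listed at both ages lie in only 4 pairs of cliques, so they are not 8 separate measurements. In young, Apoa1, Apoc3, Apoa4 and Apoa5 lay in 1 clique of 83 nodes, and in old in 1 clique of 68. Apoe and Apoc1 shared a clique with 98 young and 121 old nodes. For Apoa2 the clique sizes were 64 (young) and 55 (old), and for Apob 23 and 20. In young, cliques of 83 nodes or more held 8.85% of the listed genes, those of 98 or more 5.91%, those of 64 or more 15.9% and those of 23 or more 54.8%.

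**Figure D1:**
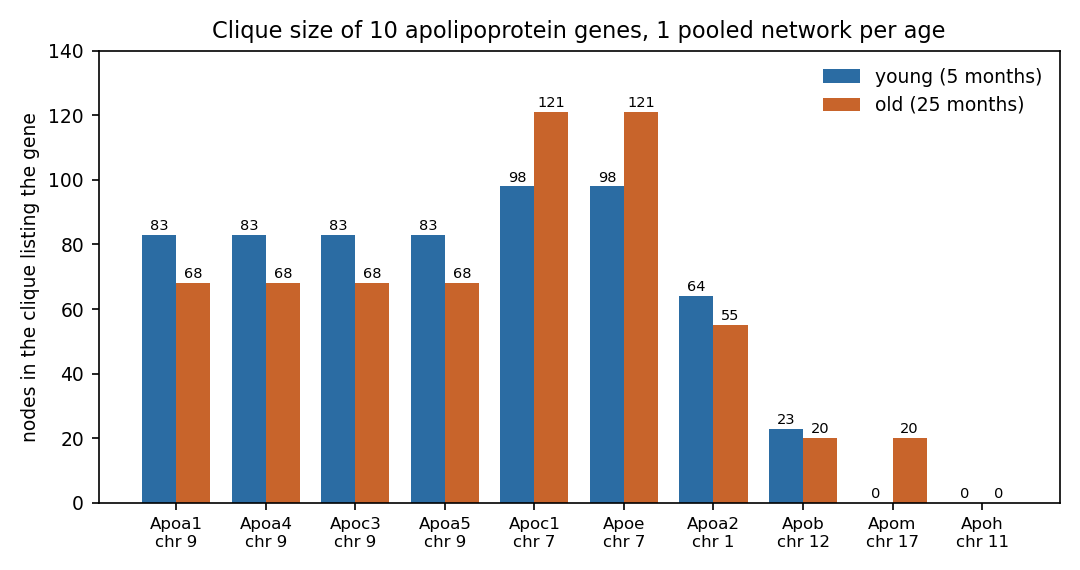
Number of nodes in the clique that lists each gene (vertical axis) for the 10 genes with their chromosome (horizontal axis). Blue bars are the pooled young network and orange bars the pooled old network, without error bars because each age has 1 network. The genes on chromosome 9 share 1 value per age, 83 and 68, and the genes on chromosome 7 share 98 and 121, while Apom has a bar in old only and Apoh has none.

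Of the 8 genes, 6 had a smaller clique in old and 2 a larger one. Over the 6257 genes listed at both ages, 81.5% had a smaller clique in old, 13.0% a larger one and 5.53% an equal one, so the direction alone did not set these genes apart. Without scaling to the smaller old network, the sizes themselves differed less between the ages than the median gene's. On the scale log2((old + 1)/(young + 1)) the values were -0.28 for the chromosome 9 genes, -0.22 for Apoa2, -0.19 for Apob and 0.30 for Apoe and Apoc1. Their median was -0.25, or -0.20 with each pair of cliques counted once, against -0.63 over all genes listed at both ages. None of the 8 was past 2-fold in either direction, while 39.5% of all genes were, 35.7% with the smaller clique in old and 3.77% with the larger. At 1.5-fold it was also 0 of 8, against 59.3% of all genes.

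Each gene was also set beside genes whose young clique was within 25% of its own in size. For the 828 genes of like size, the median was -0.74, and 27.4% had a higher value than the -0.28 of the chromosome 9 genes. For Apoa2, the median of 1296 genes was -0.82, with 14.1% above it. For Apob, the median of 1020 genes was -0.62, with 26.1% above it. For Apoe and Apoc1, the median of 609 genes was -0.98 and no gene outside the pair had a value above theirs. Genes that share a clique share its value, so these shares rest on fewer cliques than genes.

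The old network as a whole was smaller, and with sizes divided by the mean clique size of the age, all 8 genes had the larger value in old, as did 49.0% of genes. On that scale the log2 values were 0.36 for the chromosome 9 genes, 0.42 for Apoa2, 0.44 for Apob and 0.95 for Apoe and Apoc1. The median of all genes was -0.02, a signed value with genes on both sides of 0. It does not measure how far a typical gene differed between the ages. Without the division, 31.2% of genes had a higher value than the chromosome 9 genes and 27.4% than Apoa2. For Apob it was 25.6%, and for Apoe and Apoc1 8.42%. Dividing by the number of nodes of the age gave 0.21, 0.28, 0.30 and 0.80, all 8 larger in old, against 41.8% of genes.

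Most bins of each young clique that lists these genes were also nodes in old. For each young clique, a bin counts as kept where the same 5 kb bin was a node in old, and the Jaccard index is the number of bins shared with the best-matching old clique divided by the bins in either. Kept bins were 72 of 83 (86.7%, 95% Wilson interval 77.8 to 92.4) for the chromosome 9 clique, 83 of 98 (84.7%, 76.3 to 90.5) for the Apoe clique, 51 of 64 (79.7%, 68.3 to 87.7) for Apoa2 and 20 of 23 (87.0%, 67.9 to 95.5) for Apob. The intervals cover counting error only and treat neighbouring bins as independent. Over the whole young network 55.6% of nodes were kept, and the median over young cliques of like size was 67.6%, 67.4%, 67.5% and 58.3% in the same order.

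The Jaccard index was 0.80 for the chromosome 9 clique, and 4 of 86 young cliques of like size had a higher one. It was 0.61 for the Apoe clique, with 11 of 55 higher, 0.75 for Apoa2, with 9 of 174 higher, and 0.87 for Apob, with 5 of 439 higher. The medians of those cliques were 0.47, 0.47, 0.49 and 0.44. The chromosome 9 clique had 67 of its 72 kept bins in the old clique with the same 4 genes and the rest in old cliques of 3 and 2 nodes. The Apoe, Apoa2 and Apob cliques each had all of their kept bins in a single old clique. In the cliques of like size, kept bins lay in more than 1 old clique for 70 of 86 beside the chromosome 9 clique, 47 of 55 beside Apoe, 145 of 174 beside Apoa2 and 254 of 439 beside Apob.

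**Figure D2:**
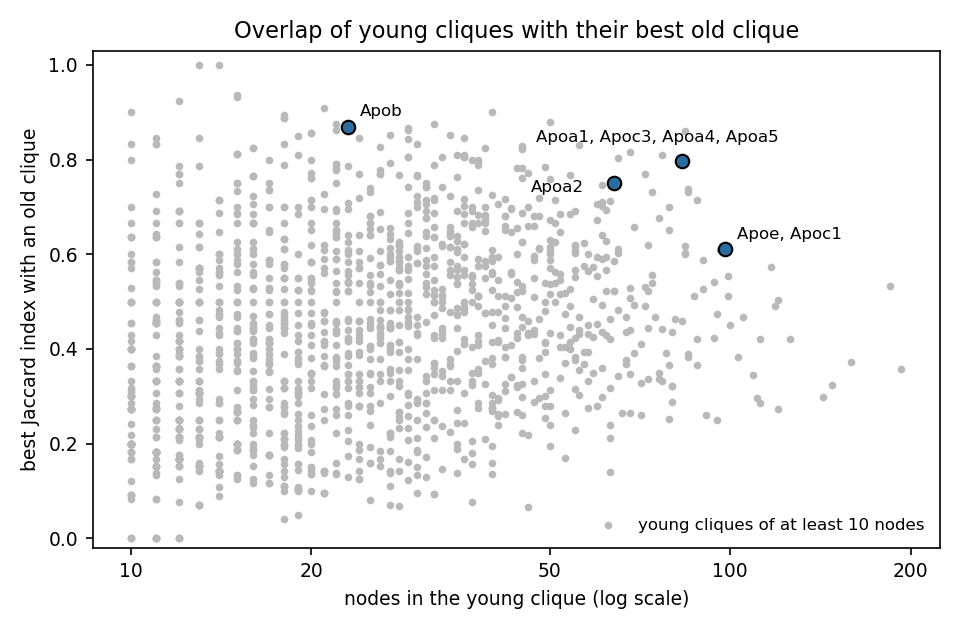
Best Jaccard index of each young clique with any old clique (vertical axis) against its number of nodes (horizontal axis, log scale), for young cliques of at least 10 nodes. Grey points are single cliques and blue points the 4 cliques that list apolipoprotein genes, at 0.87 for Apob, 0.80 for the Apoa1 cluster, 0.75 for Apoa2 and 0.61 for Apoe and Apoc1, above most grey points of like size.

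The chromosome 9 cluster lay in the longest unbroken stretch of nodes within any single young clique. Stretches that cross from one clique into another were not ranked. The 4 genes lie within 43.3 kb (chr9:46228630-46271921), from Apoa1 through Apoc3, whose protein slows the breakdown of triglyceride-rich particles, and Apoa4, a component of such particles, to Apoa5, whose protein speeds that breakdown. All 10 bins of that stretch were nodes at both ages and belonged to 1 clique at each. The young clique covered 470 kb from chr9:45820001 to 46290000, and 88.3% of the bins in its span were its nodes. Only 1 of 86 young cliques of like size was filled more densely, and their median was 53.6%. In old the span was 370 kb and 91.9% of its bins were nodes, again with 1 denser clique, out of 45.

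Within the young clique, 46 bins followed each other without a gap over 230 kb (chr9:46045001-46275000), from inside Sik3 to past Apoa5. No other of the 5401 young cliques had a run as long. In old the longest run of this clique was 20 bins (100 kb, chr9:46180001-46280000), and 26 of the 5973 old cliques had a longer one. The old clique lacked 3 single bins inside its span that were nodes in young, and all 3 lay in the stretch of the young run. The single old bin with no young counterpart was the last of the old clique.

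Most of the loss on chromosome 9 lay at the end away from the apolipoprotein genes. Of the 83 young bins, 13 were outside the span of the old clique, and 8 of these were not nodes in old. The old clique began 90.0 kb further in at that end and ended 10 kb earlier at the other. The genes listed shrank in the same way: all 15 genes of the old clique were among the 20 of the young one. Bace1, which encodes the beta-secretase of amyloid precursor protein, and the centrosome gene Cep164 left the clique and were listed in old cliques of 2 and 3 nodes. The protein-coding genes listed with the cluster at both ages, nearest first, were Zpr1, Sik3, Pafah1b2, Sidt2 and Tagln. Sik3 encodes a salt-inducible kinase, and Tagln an actin-binding protein of smooth muscle. Bud13 and Pcsk7, which also lie near the cluster, were listed at neither age.

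**Figure D3:**
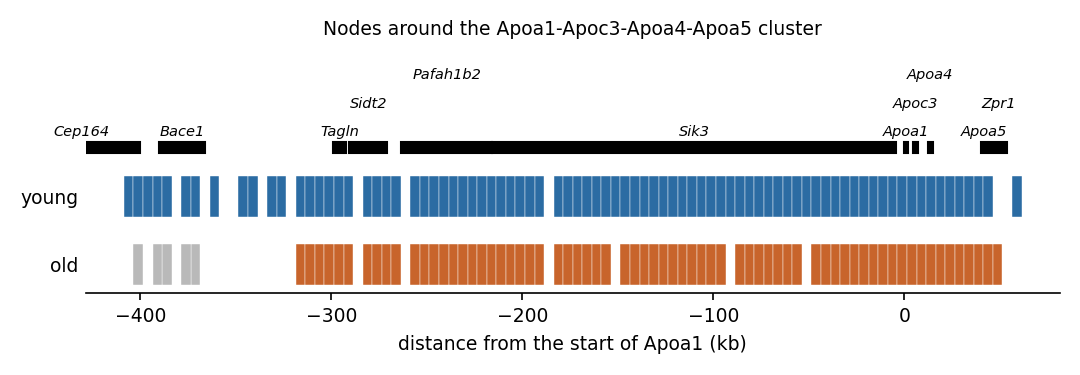
Nodes along chromosome 9, as distance in kb from the start of Apoa1 (horizontal axis), with genes as black bars on top. Blue boxes are 5 kb nodes of the young clique of 83 and orange boxes those of the old clique of 68, and grey boxes are nodes of other cliques. The unbroken blue run of 230 kb is interrupted in old by single missing bins, and the left end of the young clique is grey or empty in old.

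The Apoe clique was the one that was larger in old, and it reached further along the chromosome. Apoe is a ligand by which remnant particles are taken up, and Apoc1 a small apolipoprotein that slows particle uptake. The 29.7 kb from Apoe to Apoc2 (chr7:19671579-19701310) spanned 7 bins, all of them nodes of the same clique at each age. The young clique spanned 835 kb (chr7:19130001-19965000) and the old one 1075 kb (chr7:18895001-19970000), starting 235 kb further out on the side away from Apoe. Of the 121 old bins, 17 lay outside the young span. Of those 17, 12 were young nodes of cliques of 12 and 4 nodes, and 5 were not nodes in young. A further 21 old bins inside the young span were absent from the young network. The share of the old clique with a young counterpart was 78.5% (70.4 to 84.9), and 78.5% of all old nodes had one. The median over the 4 old cliques of like size was 88.1%, and 3 of them had a higher share.

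Genes joined the Apoe clique more than they left it. It listed 48 genes in young and 60 in old, with 46 in common, 95.8% of the young list and 76.7% of the old. Among the protein-coding genes that joined, Foxa3, Sympk and Fbxo46 came from the young clique of 12, and Dmwd and Six5 from that of 4. Ckm, Dmpk, Ercc2, Gipr, Klc3, Relb and Zfp296 had been listed in no young clique. Ercc2 encodes a helicase of DNA repair and transcription, and Gipr the receptor of an incretin hormone. Bcam, a laminin receptor gene, left and was listed in no old clique. The protein-coding genes nearest to Apoe and Apoc1 that were listed with them at both ages were Tomm40, Apoc4, Apoc2, the readthrough entry Gm44805, Nectin2 and Clptm1. Apoc2 encodes the activator of lipoprotein lipase and Tomm40 the pore of mitochondrial protein import.

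**Figure D4:**
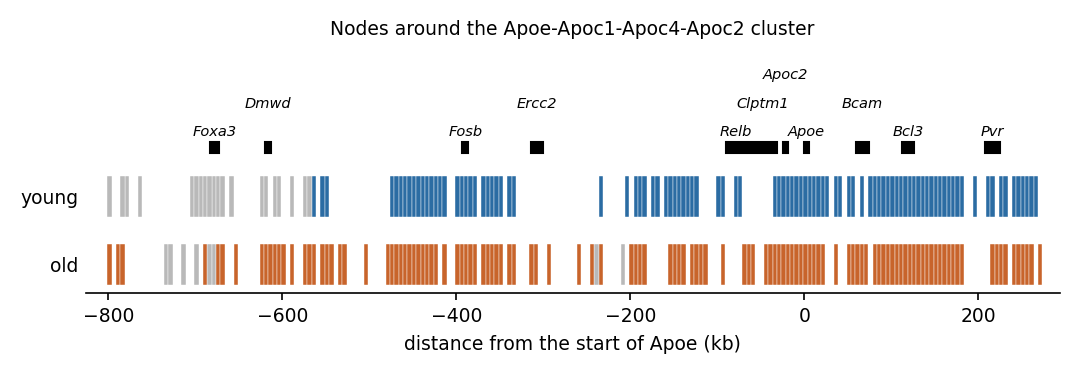
Nodes along chromosome 7, as distance in kb from the start of Apoe (horizontal axis), with selected genes as black bars on top. Blue boxes are nodes of the young clique of 98, orange boxes those of the old clique of 121 and grey boxes nodes of other cliques. Orange boxes reach past the left end of the blue ones to Foxa3, where the young nodes are grey.

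The Apoa2 clique kept its extent and was thinned from within. Apoa2 lies on chromosome 1 (chr1:171221564-171226379). Its clique spanned 470 kb at both ages, moved by 5 kb at each end. Of the 64 young bins, 63 lay inside the old span, and 12 of those 63 were not nodes in old. Filled bins went from 68.1% to 58.5% of the span, and the longest run from 18 bins to 11. Nearly all young bins without an old counterpart had one next door: 98.4% were kept when an adjacent old node was allowed. In a span filled to 58.5% an adjacent node is common, and no such share is given for cliques of like size. All 25 genes of the old list were among the 28 of the young. The missing genes were Ppox, which encodes an enzyme of haem synthesis, Nectin4 and Pcp4l1, and none of them was listed in any old clique. Among the nearest genes listed with Apoa2 at both ages were Tomm40l, Nr1i3, Fcer1g, Adamts4 and B4galt3. Nr1i3 encodes the xenobiotic receptor CAR, and Fcer1g a signalling subunit of Fc receptors.

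The Apob clique had the same first and last bin at both ages. It spanned 135 kb (chr12:7875001-8010000), of which 85.2% of bins were nodes in young and 74.1% in old. All 20 old bins were young bins of the same clique, and 3 young bins were missing in old, 1 of them inside the gene. Apob was the only protein-coding gene listed, beside Gm48633 at both ages and Gm18387 in young. The clique stopped 6.84 kb before the end of the gene (chr12:7977629-8016839). In young, nodes went on without a gap from 7970001 to 8025000, 11 bins in all. Those after 8010000 belonged to another clique, of 69 nodes, that listed 9 genes and not Apob. In old, bins of that clique lay in cliques that listed Ldah and Rhob.

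The ages differed more after that edge than before it, although the edge itself was set by the Apob cliques of these data. In the 100 kb before the edge, 18 of 20 bins were young nodes and 17 were old nodes. In the 100 kb after it, 16 of 20 were nodes in young and 6 in old. The young clique beyond the edge kept 38 of its 69 bins (55.1%, 43.4 to 66.2), in 3 old cliques, and 105 of 145 young cliques of like size had a higher Jaccard index than its 0.39. With genes assigned by any bin within 2500 bp of the gene instead of by the authors' list, Apob therefore fell in cliques of 69 and 20 nodes, a log2 value of -1.74, against a median of -0.64 over 7855 genes assigned in that way. The order of the 2 ages was unchanged, but the size of the difference for Apob depends on which clique stands for the gene.

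Apom was listed in old only, as were 9.44% of genes listed at either age. Its protein carries sphingosine 1-phosphate on high density lipoprotein. The gene (chr17:35128997-35131801) lies in the class III region of the major histocompatibility complex. Its start-site bin was a node in old but not in young, while the bin on the other side of the gene was a node at both ages. By gene position rather than by the authors' list, Apom was in cliques at both ages, with 69 nodes in young and 46 in old, so its absence in young holds for the list and the start-site bin only. The old clique that lists Apom had 20 nodes over 215 kb (chr17:35130001-35345000) and listed the cytokine genes Tnf, Lta and Ltb and the class I gene H2-D1 among 16 genes. These genes, like Ldah and Rhob above, were chosen after their values were seen. Of the 20 bins, 12 were young nodes (60.0%, 38.7 to 78.1), spread over 4 young cliques, 8 of them in a clique of 69 nodes. Its best Jaccard index was 0.10, and all 437 old cliques of like size had a higher one.

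Apoh, which encodes the phospholipid-binding plasma protein beta-2-glycoprotein I, was listed in neither network. No young node lay within 2500 bp of the gene (chr11:108395297-108414396). In old, the bin with its start site was a node of a clique of 3 nodes for which the authors listed no gene. For other genes the list and the position mostly went together: 93.2% of the 5547 old start-site bins belonged to a clique that listed the gene. The start site that the authors' list used for Apoh was not given in these sources.

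**Figure D5:**
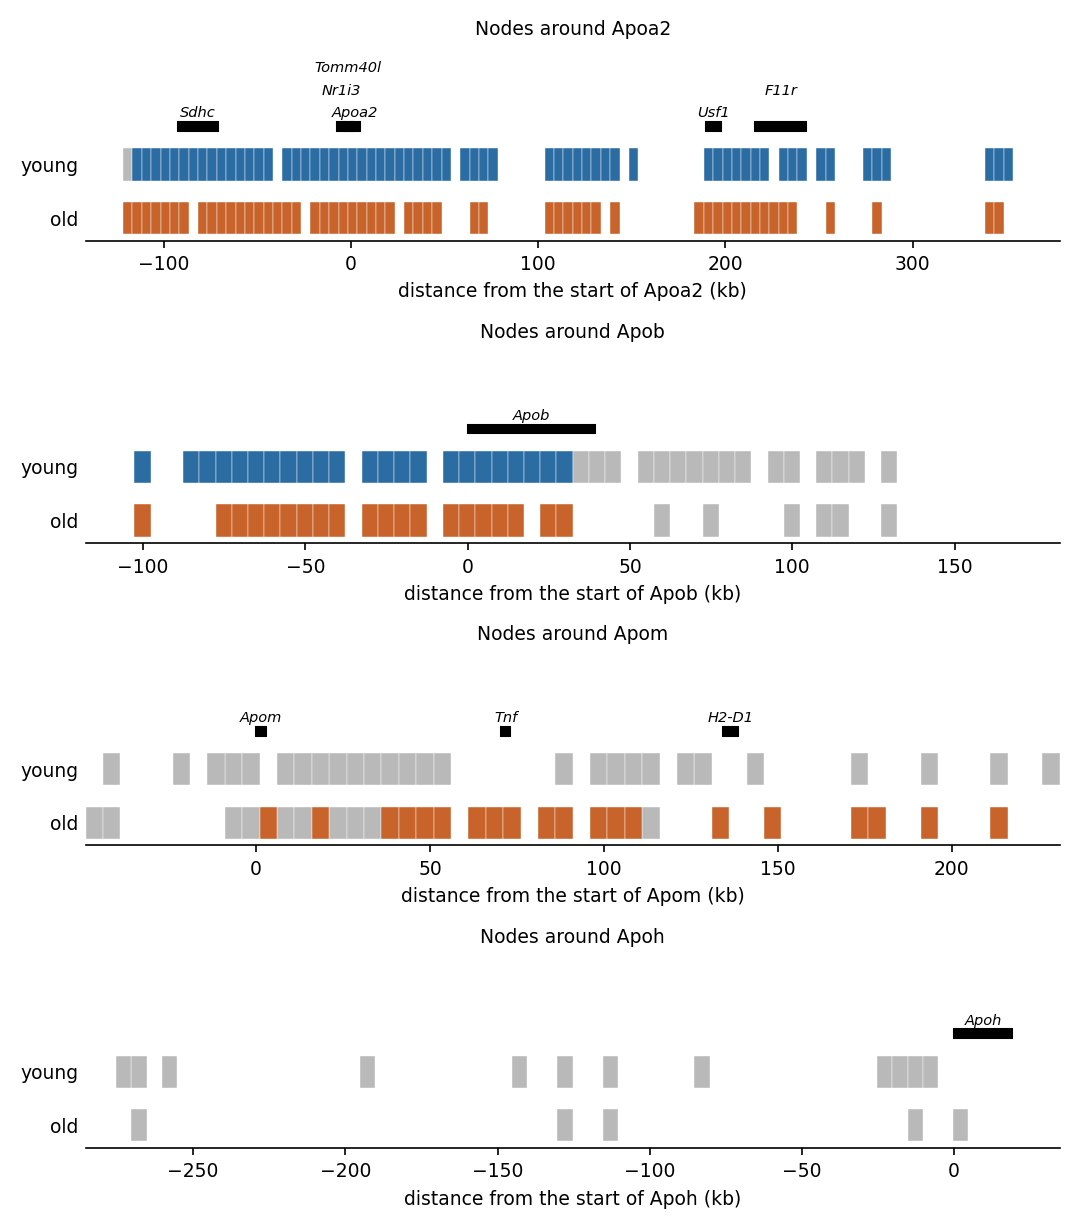
Nodes around Apoa2, Apob, Apom and Apoh, each as distance in kb from the lowest position of the gene (horizontal axes), with genes as black bars on top. Blue and orange boxes are nodes of the young and old clique that lists the gene and grey boxes those of other cliques. Apob has blue and orange boxes ending at the same bin, with more grey boxes beyond it in young than in old, while Apom has an orange box at its start and Apoh a grey one in old, both without a young counterpart.

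Other genes of lipoprotein metabolism were taken from 5 lists. Their counts stand against all genes listed at both ages, of which 81.5% were smaller in old and, relative to the mean clique size of the age, 49.0% larger. Differences between the lists and all genes were not tested. The first list held 17 genes of further apolipoproteins, lipoprotein-bound proteins and others named after apolipoproteins. Of these, 12 were listed at both ages, 10 with the smaller and 2 with the larger clique in old, with a median log2 value of -0.23. Relative to the mean clique size of the age, 8 of the 12 were larger in old. Some of the 12 share a clique, such as Apof with Apon and Apoc2 with Apoc4, so they are not 12 separate measurements. Apof and Apon, both genes of minor plasma apolipoproteins, shared a clique that held 159 nodes in the young network and 4 in the old. The antioxidant enzyme genes Pon1 and Pon3 were in cliques of 28 and 12 nodes. Apoc2 and Apoc4, which share the Apoe clique, were the 2 with the larger value. Apol7a and Apoo were listed in young only and Apol9a in old only.

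Of 16 assembly and secretion genes, 12 were listed at both ages, 11 with the smaller clique in old and 1 with the larger, and the median was -0.72. Relative to the mean, 6 of the 12 were larger. Mttp, which encodes the transfer protein that loads lipid onto Apob, was in cliques of 13 and 4 nodes, as was Pdia3, a protein disulphide isomerase gene, in other cliques of the same sizes. The sorting receptor gene Sort1 was in cliques of 26 and 9 nodes. Surf4, a cargo receptor gene of the secretory pathway, was the exception at 14 and 47 nodes.

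Receptors and uptake genes were listed at both ages in 6 of 16, with 4 smaller and 2 larger in old and a median of -0.42. Relative to the mean, 4 of the 6 were larger. Scarb1, the high density lipoprotein receptor gene, was in cliques of 44 and 47 nodes. Lrp1, a remnant receptor gene, was in cliques of 159 and 69 nodes. Ndst1 (54 and 37 nodes) and Sdc1 (31 and 25), which make and carry heparan sulphate, had the smaller clique in old. Lrp5 and Lrp6 were among the genes listed in young only, in cliques of 126 and 79 nodes. A gene absent from the old list can still have old nodes near it. With genes assigned by gene span, 9 receptor genes were smaller in old and 3 larger. Scarb1, Lrp5 and Lrp6 were chosen after their values were seen.

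Remodelling enzymes and transporters were listed at both ages in 10 of 16, with 7 smaller, 2 equal and 1 larger in old and a median of -0.75. Relative to the mean, 4 of the 10 were larger. Angptl8 and Angptl4, whose proteins inhibit lipoprotein lipase, were in cliques of 43 and 2 nodes and of 49 and 15. The endothelial lipase gene Lipg was at 58 and 25 nodes. The sterol exporter gene Abcg8 was the 1 larger in old, at 3 and 7 nodes. Lcat, which encodes the cholesterol-esterifying enzyme activated by Apoa1, had a young clique of 58 nodes and was not listed in old.

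Genes of transcription factors known to act on apolipoprotein genes were listed at both ages in 21 of 25, with 18 smaller and 3 larger in old and a median of -0.46. Relative to the mean, 11 of the 21 were larger. Creb3l3, a factor that responds to fasting, had cliques of 185 and 14 nodes, and the sterol regulator gene Srebf2 of 18 and 2. Hnf4a, a central hepatocyte factor, had 65 nodes in its young clique and was not listed in old, nor was Nr2f2, with 10 in young. Foxa3, at 12 and 121 nodes, joined the Apoe clique, and Nr1h2, which encodes the oxysterol receptor LXR-beta, was at 10 and 74. The medians of all 5 lists lie between -0.75 and -0.23, on both sides of the -0.63 over all genes.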

How the data were processed

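Hepatocytes of young and old male mice were profiled by H3K27ac Hi-ChIP in 12 libraries. The authors deposited 4 tables, 2 per age, with node positions and cliques, and per the file headers the value is the number of nodes in each clique. Per the submitters' processing notes, the tools included Bowtie2 and HiC-Pro and the builds were mm10 and GRCm38. For the loop caller, the clique method, the promoter window behind the gene column and the pooling of libraries, details were not given in the sources used here. No table names a replicate, so each network was taken as pooled by age.

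The members, lists, motifs and tests were chosen with earlier results of these data known. Gene names were split on semicolons. Where several cliques list a gene, the largest was taken. A gene at 0 nodes at 1 age gets no fold. Network gene names were matched to RefSeq protein-coding genes of GRCm38.p6 by symbol or unique synonym. Bins were matched by identity on the 5 kb grid, with an overlap of at least 1 bp. Genes named are the 10 members, up to 6 protein-coding genes listed with them at both ages, nearest start first, up to 4 genes per list with the largest absolute log2 value, and neighbours of the 2 gene clusters. Others are said to be chosen after their values were seen, or are named because they joined or left a clique, were listed at 1 age only or differ in direction from their list. Some genes named by this rule are not reported here. For promoters the first-listed start site was used, and bases after any annotated start of the gene were left out of the printed sequences. The code for sizes, matched bins and log2 values was tested on simulated data. Python 3.11.15, pandas 2.3.3, scipy 1.17.1 and matplotlib 3.10.9 were used.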

Additional observations from a re-analysis of the deposited data

How the results depend on the processing

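Dividing sizes by the mean clique size or by the number of nodes of the age turned 6 of the 8 genes from smaller to larger in old, so 0 were smaller and 8 larger under both. The log2 values became 0.36 and 0.21 for Apoa1, Apoa4, Apoc3 and Apoa5, 0.42 and 0.28 for Apoa2 and 0.44 and 0.30 for Apob. A pseudocount of 5, the smallest clique that lists the gene and a minimum of 3 nodes kept all 8 directions, but none of them could have changed one. A pseudocount cannot turn the order of 2 sizes. Each of the 8 genes was listed in 1 clique per age, of 20 nodes or more. By gene span Apom was also placed at both ages (69 and 46 nodes), 7 genes were smaller and 2 larger in old, and 1 of these 9, Apob, passed 2-fold, while 36.0% of all genes were at least 2-fold smaller in old by gene span. At a threshold of 1.5-fold none of the 8 did, against 59.3% of genes.

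Allowing an adjacent bin can only raise the kept share, and no such share is given for cliques of like size. For the young cliques it became 92.8% for the chromosome 9 genes, 95.9% for Apoe, 98.4% for Apoa2 and 95.7% for Apob. For the old cliques it gave 100% for the chromosome 9 genes and for Apoa2, 90.1% for Apoe and 85.0% for Apom. Shared bins as a share of the smaller clique were 0.985 for the chromosome 9 genes, 0.847 for Apoe, 0.927 for Apoa2 and 1.0 for Apob, higher than the Jaccard index by construction. For Apom it was also 1.0, but its best match was a young clique of 2 nodes, so that value says nothing about the other bins.

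Relative to the mean clique size of each age, the number smaller in old was 4 for further apolipoproteins, 6 for assembly, 2 for receptors and 10 for transcription factors. The medians turned to 0.41 for further apolipoproteins, 0.22 for receptors and 0.17 for transcription factors. By gene span 9 receptor genes were smaller in old and 3 larger, and 21 transcription factor genes were smaller and 3 larger. Some genes not listed at both ages thus had nodes at both. Counts of genes larger in old by gene span were 2 for assembly and 2 for remodelling, against 1 each from the authors' list.

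No paired analysis was possible because each age has 1 pooled network without replicates, and leaving out each replicate was not run for the same reason. Depth is unknown for both networks, so a bin that is no node is not shown to lack the contact or the mark.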
